A study of Homo sapiens with 4 samples.

Results

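The 35 genes described here encode enzymes of cholesterol synthesis, the SREBP transcription factors and their regulators, sterol transport proteins, and enzymes of fatty acid and glycerolipid synthesis. They were chosen by symbol for these known roles, and all 35 were found among the 24424 gene symbols counted. RNA was sequenced from BEAS-2B, a virus-immortalised human line of bronchial epithelium, given as wild type in genotype and grown in BEBM medium with its BEGM supplements. The 4 groups were siRNA to occludin (24 h) and then bacterial lipopolysaccharide, LPS (2 h), named siOCLN+LPS, transfected wild-type occludin (24 h) and then LPS (2 h), labelled wtOCLN+LPS, LPS without transfection (2 h), and a control with no treatment. Each group was 1 library of 1 cell line, and no library is labelled as a mock transfection, a scrambled siRNA or an empty vector. Transfection itself therefore cannot be told apart from the siRNA or the occludin construct in any comparison with LPS or control. With 1 library a group there was no replicate check and no test, and each statement below is about these libraries.

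Cells make cholesterol from acetyl-CoA through mevalonate, isoprenoid diphosphates and squalene, and make saturated fatty acids from the same precursor through malonyl-CoA. SREBP-2, encoded by SREBF2, mainly drives the sterol genes, and SREBP-1, encoded by SREBF1, mainly the fatty acid genes. Both are escorted by SCAP from the endoplasmic reticulum to the Golgi for cleavage when sterols are low, and INSIG proteins hold them back when sterols are high. The LXR nuclear receptors work in the other direction for cholesterol: when oxysterols are high they raise ABCA1 and ABCG1, which export cholesterol, and MYLIP, a ubiquitin ligase that lowers lipoprotein receptors, and they also raise SREBF1.

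Library totals ran from 13867494 counts in LPS to 17500031 in the library labelled wtOCLN+LPS, and values are CPM, counts scaled to a common library total, so 1 count was worth 0.0571 to 0.0721 CPM. Intervals are exact 95% intervals and cover counting error only, not the spread between cultures. OCLN, the targeted gene, stood at 21.0 CPM in siOCLN+LPS, 29.7 CPM in the library labelled wtOCLN+LPS, 50.4 CPM in LPS and 55.4 CPM in control. OCLN was thus below LPS in the library whose label gives added occludin, which is written here as the library labelled wtOCLN+LPS, and nothing below should be taken as an effect of raised occludin. The count covers only the exons counted for OCLN, so a construct without those exons cannot be told apart from a label that does not hold. All 8 epithelial markers examined were detected in every library, EPCAM at the lowest level of them in the transfected libraries. The T-cell marker CD3E, the B-cell marker MS4A1 and the fat-cell markers ADIPOQ and FABP4 had 0 counts in all 4 libraries. Of the other fat-cell markers, PLIN1 had 10 to 17 counts in each library and LEP at most 3. The leukocyte marker PTPRC had 3 counts, in control alone, while CD14 and CD68 were detected in every library and are given below.

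Of the 35 genes, 34 were at 1 CPM or more in all 4 libraries, and ABCG1 reached it in control alone. Per kilobase of transcript, using the longest GENCODE 29 transcript of each gene, the highest mean levels were 189 CPM per kb for SCD, the desaturase that makes oleate, and 163 CPM per kb for FASN, fatty acid synthase. HMGCS1, which makes HMG-CoA, followed at 158 CPM per kb and CYP51A1, lanosterol demethylase, at 153 CPM per kb. The lowest were MYLIP at 4.65, ABCA1 at 0.60 and ABCG1 at 0.25 CPM per kb. Together the 35 genes took 1.04% of counts in siOCLN+LPS, 1.06% in the library labelled wtOCLN+LPS, 0.828% in LPS and 0.851% in control.

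**Figure D1:**
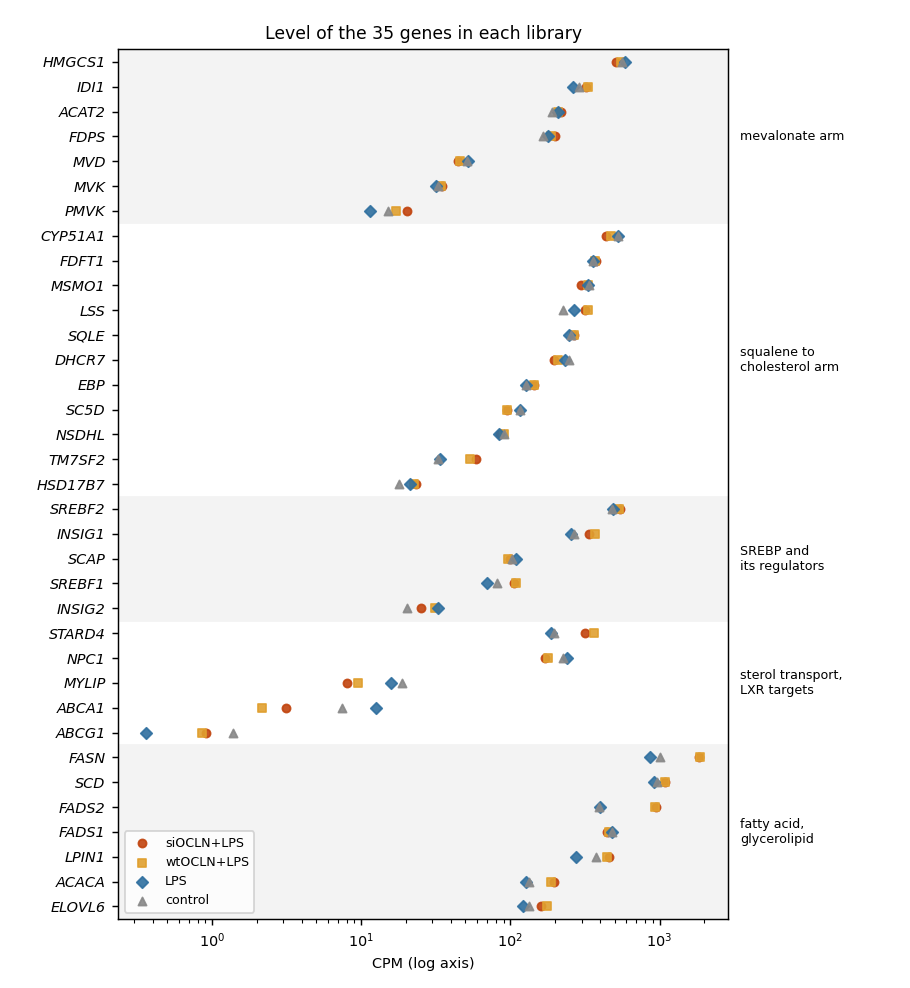
CPM of each of the 35 genes (horizontal, log axis) in the 4 libraries (points), with genes grouped by role and ordered by mean CPM within a group. The points of most sterol enzymes overlap, while FASN, FADS2 and STARD4 lie to the right in both transfected libraries and ABCA1 and MYLIP to the left.

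Summed by role with library totals, the enzymes of sterol synthesis were at nearly the same level in all 4 libraries. The 7 fatty acid and glycerolipid genes were not. The 18 enzymes from ACAT2 to DHCR7 summed to 3644 CPM in siOCLN+LPS, 3763 CPM in the library labelled wtOCLN+LPS, 3677 CPM in LPS and 3633 CPM in control. These sums lay within a few percent of each other, with a ratio of 0.991 (0.979 to 1.002) for siOCLN+LPS against LPS and 1.023 (1.011 to 1.035) for the library labelled wtOCLN+LPS against LPS. That level depends on the scaling, since median ratio, upper quartile and TMM scaling each raised the ratios of the transfected libraries to LPS. FDFT1 in siOCLN+LPS, for one, went from 1.05 to 1.16 with TMM scaling. The sums were not made with those scalings, but a scaling multiplies all genes of a library by the same factor. The summed ratios to LPS would therefore rise by the same factor as that of FDFT1 in the same library. The near-equal level was thus seen with library totals. The 7 genes of fatty acid and glycerolipid synthesis summed to 5120 CPM in siOCLN+LPS, 5170 CPM in the library labelled wtOCLN+LPS, 3195 CPM in LPS and 3477 CPM in control. Against LPS that was a ratio of 1.60 (1.58 to 1.62) in siOCLN+LPS and 1.62 (1.60 to 1.64) in the library labelled wtOCLN+LPS. FASN and FADS2 alone made up 71.9% of the summed difference of the 35 genes in siOCLN+LPS against LPS and 65.6% of it in the library labelled wtOCLN+LPS against LPS. SREBP and its regulators, 5 genes, summed to 1112, 1141, 949 and 953 CPM in siOCLN+LPS, the library labelled wtOCLN+LPS, LPS and control.

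**Figure D2:**
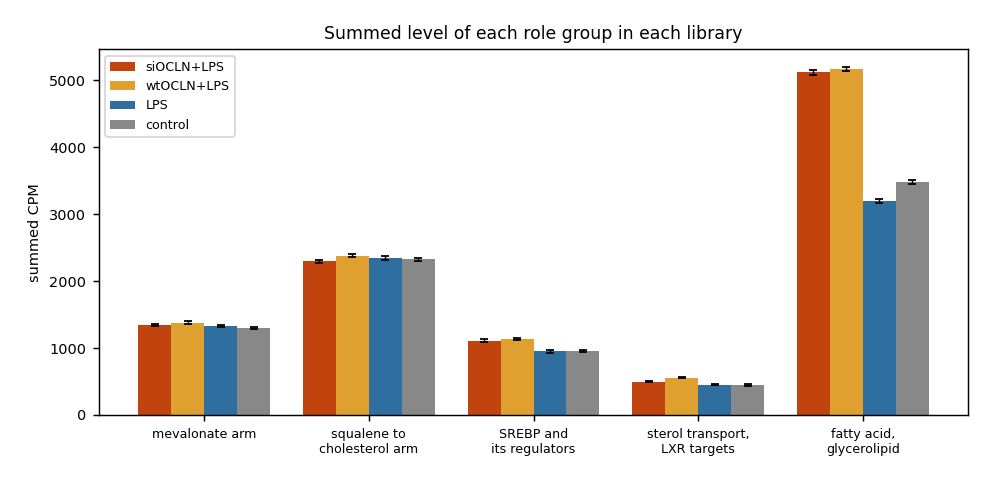
Summed CPM (vertical) of the genes of each role group in the 4 libraries (bars, with 95% Poisson intervals). The fatty acid group stands at 5120 and 5170 CPM in the transfected libraries, against 3195 CPM in LPS and 3477 CPM in control. With these library totals the mevalonate and squalene groups are almost level.

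LPS for 2 h against control asks what acute LPS did to these genes without transfection. None of the 35 was at least 2-fold higher or lower on the log2(CPM + 1) scale, the scale used for all such counts, where 1.6% of the 13551 genes tested were higher and 0.207% lower. Their median log2 ratio was -0.01, beside -0.09 over all genes tested. The 18 sterol enzymes had a median log2 ratio of 0.00 and a range of -0.38 to 0.25. CYP51A1 stood at 528 CPM in LPS, against 525 CPM in control, a ratio of 1.01 (0.975 to 1.04), and SREBF2 at 485 CPM in LPS and 482 CPM in control.

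Past 1.5-fold in LPS were ABCA1 and INSIG2 on the higher side, where 3.45% of all genes tested lay, and ABCG1 on the lower side, where 2.8% lay. ABCA1 stood at 12.5 CPM in LPS, against 7.43 CPM in control, a ratio of 1.69 (1.33 to 2.15). INSIG2, which retains the SCAP and SREBP complex, stood at 32.5 CPM in LPS, against 20.3 CPM in control, 1.60 times as high (1.39 to 1.86). Its paralogue INSIG1, itself an SREBP target, stood at 255 CPM in LPS and 267 CPM in control. ABCG1 rested on 5 counts in LPS and 22 in control, a ratio of 0.260 (0.077 to 0.705). The 2 LXR-driven exporters thus lay on opposite sides, one of them on few counts.

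LPIN1, FASN and LSS were among the genes apart by less, though by more than counting error. In LPS against control the intervals of 19 of the 35 genes excluded 1, those above included. PMVK (ratio 0.754) and SREBF1 (0.854) were also lower in LPS than in control, and HSD17B7 (1.19) was higher. LPIN1, the phosphatidate phosphatase lipin 1, had 275 CPM in LPS, against 376 CPM in control (ratio 0.731, 0.701 to 0.761). FASN had 870 CPM in LPS, against 1001 CPM in control (0.869, 0.848 to 0.890), and LSS, lanosterol synthase, 267 CPM in LPS, against 224 CPM in control (1.19, 1.14 to 1.25). These differences are below 1.5-fold, and without a second culture they cannot be set against the spread between cultures.

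The transfected libraries against LPS compare transfected with untransfected cells, both under LPS. They cannot part the occludin siRNA or the occludin construct from transfection itself. Both comparisons share the LPS library, so their values are given side by side and their likeness is not read as a second observation. In siOCLN+LPS 34 genes were tested, and 2 of them, FASN and FADS2, were at least 2-fold higher, where 3.32% of the 13505 genes tested were. Of the 34, 1 gene, ABCA1, was at least 2-fold lower, where 3.92% were. In the library labelled wtOCLN+LPS the same 3 genes were past 2-fold in the same directions, where 3.32% of 13493 genes were higher and 3.69% lower. The median log2 ratio of the genes was 0.13 in siOCLN+LPS against LPS, beside -0.13 over all genes tested. In the library labelled wtOCLN+LPS against LPS it was 0.11, beside -0.15 over all genes tested. ABCG1 was the gene left out of both, being under 1 CPM in each of these libraries.

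At 1.5-fold, 8 of 34 genes were higher in siOCLN+LPS than in LPS, where 9.09% of all genes tested were, and 2 were lower, where 15.3% were. The 8 were FASN, FADS2, ACACA, LPIN1, STARD4, SREBF1, TM7SF2 and PMVK, and the 2 were ABCA1 and MYLIP. In the library labelled wtOCLN+LPS 6 of 34 were higher, where 8.59% of all genes were, and 2 lower, where 15.1% were. The 6 lacked ACACA and PMVK, which were just under the threshold at log2 ratios of 0.55 and 0.54, and the 2 lower genes were again ABCA1 and MYLIP.

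**Figure D3:**
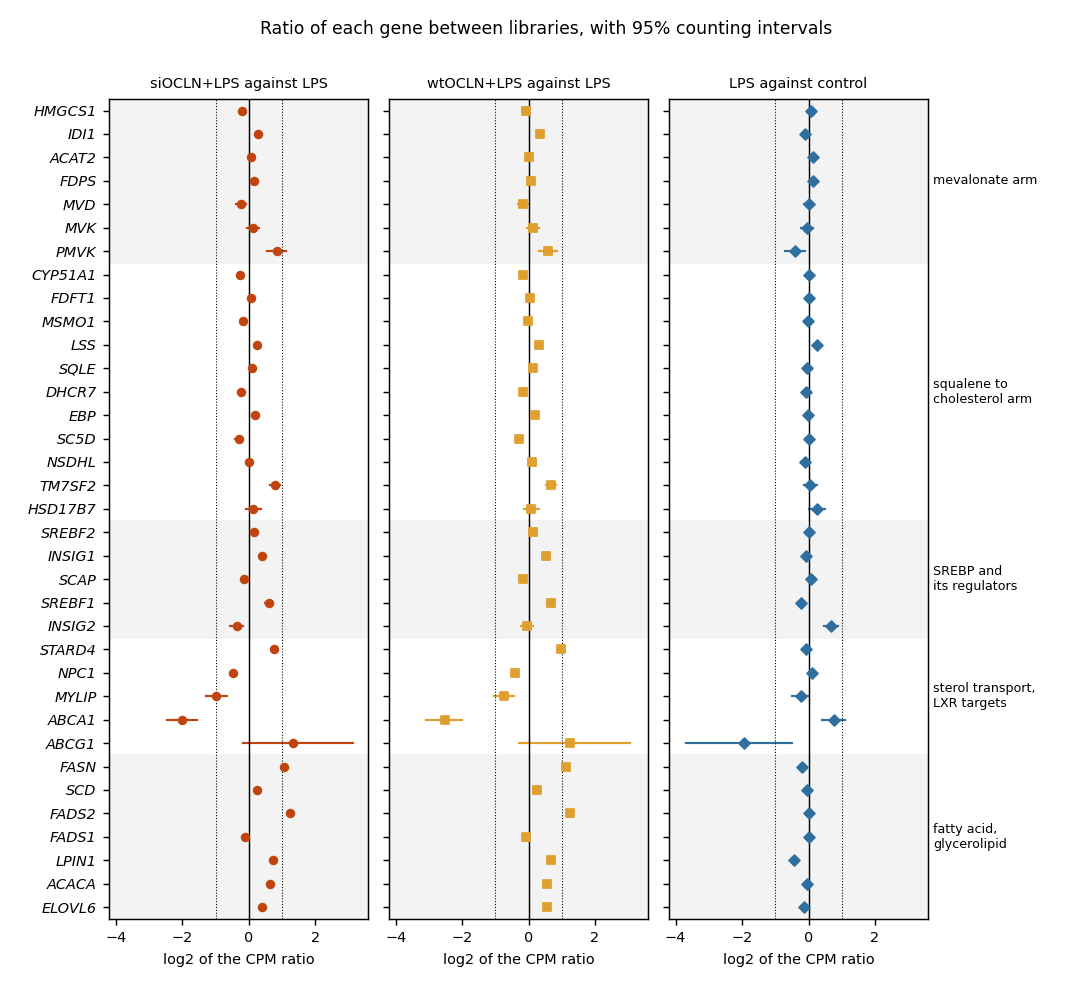
Log2 of the CPM ratio (horizontal, no pseudocount) of each gene for siOCLN+LPS against LPS, the library labelled wtOCLN+LPS against LPS, and LPS against control, with exact 95% counting intervals (lines) and 2-fold marked by dotted lines. Most sterol enzymes cluster near 0 in all 3 panels, with PMVK and TM7SF2 farther above it in the panels of transfected libraries. In those panels FASN and FADS2 lie above 1 and ABCA1 below -1. The wide interval is ABCG1, which rests on 5 to 22 counts.

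Epithelial markers differed in the same comparisons. The 8 markers summed to 2878 CPM in siOCLN+LPS, 2893 CPM in the library labelled wtOCLN+LPS, 1442 CPM in LPS and 1628 CPM in control. At least 2-fold above LPS were 5 of 8 for siOCLN+LPS, beside 3.32% of all genes tested. With the wtOCLN+LPS label 4 of 8 were, beside 3.32% of all genes tested. KRT8, for one, had 976, 919, 372 and 442 CPM in siOCLN+LPS, the library labelled wtOCLN+LPS, LPS and control, while EPCAM had 1.26, 1.60, 2.67 and 2.01 CPM. Alveolar type 2 markers summed to 48.0, 40.8, 21.1 and 19.1 CPM in siOCLN+LPS, the library labelled wtOCLN+LPS, LPS and control, nearly all of it ABCA3, while SFTPA1 had 0 counts in every library. Fibroblast markers summed to 57.1, 56.1, 63.0 and 58.1 CPM in the same order, nearly all of it COL1A1. Leukocyte markers summed to 25.6, 30.2, 22.6 and 25.1 CPM, all but a few counts from CD14 and CD68, which went opposite ways. CD14 was at 20.6, 22.7, 5.99 and 8.37 CPM, and CD68 at 4.98, 7.49, 16.6 and 16.6 CPM. Endothelial markers summed to 1.49, 1.43, 1.59 and 0.378 CPM, and fat-cell markers to 0.744, 0.571, 1.01 and 1.26 CPM. The part of these markers in the differences of FASN, FADS2 and the other genes was not tested.

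Among the fatty acid enzymes, 6 of 7 were higher than in LPS in each transfected library, by very different amounts, with FADS1 the exception. Over all genes tested, 5299 of 13505 were higher in siOCLN+LPS and 4970 of 13493 in the library labelled wtOCLN+LPS. FASN was at 1833 CPM in siOCLN+LPS, 1875 CPM in the library labelled wtOCLN+LPS, 870 CPM in LPS and 1001 CPM in control. The transfected libraries were well above the others, 2.11-fold (2.06 to 2.15) above LPS in siOCLN+LPS and 2.16-fold (2.11 to 2.20) in the library labelled wtOCLN+LPS. In CPM gained over LPS, FASN ranked 6 among all genes tested in either transfected library. Against control the ratios were 1.83 (1.80 to 1.87) and 1.87 (1.84 to 1.91), so part of the ratio to LPS came with the lower FASN level of the LPS library.

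FADS2, the delta-6 desaturase that starts the conversion of essential fatty acids to longer polyunsaturated ones, had the highest log2 ratio to LPS of the 34 genes tested in each transfected library. It was at 946 CPM in siOCLN+LPS, 938 CPM in the library labelled wtOCLN+LPS, 400 CPM in LPS and 395 CPM in control. LPS and control were within counting error of each other, and the transfected libraries were 2.37-fold (2.29 to 2.44) and 2.35-fold (2.27 to 2.42) above LPS. Its neighbour FADS1, the delta-5 desaturase that acts in the same conversion, did not share this, and stood at 442 CPM in siOCLN+LPS, 456 CPM in the library labelled wtOCLN+LPS, 480 CPM in LPS and 480 CPM in control. FADS1 was slightly below LPS in siOCLN+LPS with library totals and upper quartile scaling and slightly above it with TMM and median ratio scaling, and in the library labelled wtOCLN+LPS it was below with library totals and above with all 3 scalings. In the GENCODE 29 annotation an exon of FADS2 overlaps FADS1 on the opposite strand and FEN1, a flap endonuclease gene, on its own strand. FEN1 was at 175, 182, 180 and 199 CPM in siOCLN+LPS, the library labelled wtOCLN+LPS, LPS and control, so neither overlapping gene had a difference of the size seen for FADS2.

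The other enzymes of the group lay between these. ACACA, acetyl-CoA carboxylase 1, which makes malonyl-CoA for FASN, was at 197 CPM in siOCLN+LPS, 187 CPM in the library labelled wtOCLN+LPS, 128 CPM in LPS and 132 CPM in control. ELOVL6, which extends palmitate to stearate, was at 161 CPM in siOCLN+LPS, 177 CPM in the library labelled wtOCLN+LPS, 122 CPM in LPS and 134 CPM in control. For both, the transfected libraries were above LPS and control by more than counting error. SCD differed less, at 1085 CPM in siOCLN+LPS, 1095 CPM in the library labelled wtOCLN+LPS, 920 CPM in LPS and 960 CPM in control, ratios to LPS of 1.18 (1.15 to 1.21) and 1.19 (1.16 to 1.22). The chain from acetyl-CoA to oleate thus held genes at about 1.2-fold and at over 2-fold. LPIN1 was at 456 CPM in siOCLN+LPS, 441 CPM in the library labelled wtOCLN+LPS, 275 CPM in LPS and 376 CPM in control. Its ratio in siOCLN+LPS was 1.66 against LPS and 1.21 against control, so most of its difference from LPS lay in the LPS library's own lower level.

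Sterol enzymes were mixed around LPS. In siOCLN+LPS 12 of the 18 were above LPS and 6 below, with a median log2 ratio of 0.09 and a range of -0.30 to 0.79. The library labelled wtOCLN+LPS also had 12 above and 6 below, with a median of 0.07 and a range of -0.29 to 0.65. Over all genes tested, 5299 of 13505 were above LPS in siOCLN+LPS, with a median of -0.13. In the library labelled wtOCLN+LPS 4970 of 13493 were, with a median of -0.15, so these enzymes lay above LPS more often than genes at large. HMGCS1, the highest of the mevalonate arm per kilobase, was at 512 CPM in siOCLN+LPS, 554 CPM in the library labelled wtOCLN+LPS, 587 CPM in LPS and 563 CPM in control. CYP51A1 was at 440 CPM in siOCLN+LPS, 474 CPM in the library labelled wtOCLN+LPS, 528 CPM in LPS and 525 CPM in control. Both were slightly lower in the transfected libraries, CYP51A1 with a ratio to LPS of 0.833 (0.806 to 0.860) in siOCLN+LPS. In the library labelled wtOCLN+LPS the side depended on the scaling: HMGCS1 and MSMO1 were above LPS with each of the 3 other scalings, CYP51A1 with TMM and median ratio scaling, and MVD with TMM scaling. FDFT1, squalene synthase, and SQLE, squalene epoxidase, were within 10% of LPS in both transfected libraries, at log2 ratios of 0.04 to 0.13. The thiolase ACAT2, the kinase MVK, the synthase FDPS, the dehydrogenases NSDHL and HSD17B7 and the isomerase EBP had log2 ratios of 0.00 to 0.19 in both, and the decarboxylase MVD had -0.22 and -0.16. ACAT2 shares exon sequence on the opposite strand with TCP1 and with SOD2, the mitochondrial superoxide dismutase, which was at 972 CPM in siOCLN+LPS, 922 CPM in the library labelled wtOCLN+LPS, 1165 CPM in LPS and 106 CPM in control. ACAT2 itself was at 217, 208, 207 and 191 CPM in the same libraries, and whether reads of SOD2 entered its count was not tested.

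The genes farthest above LPS in the sterol arms were PMVK, phosphomevalonate kinase, and TM7SF2, a sterol C14 reductase. TM7SF2 was at 58.5 CPM in siOCLN+LPS, 54.0 CPM in the library labelled wtOCLN+LPS, 34.0 CPM in LPS and 32.7 CPM in control, 1.72-fold (1.54 to 1.93) and 1.59-fold (1.42 to 1.78) above LPS. PMVK was at 20.4 CPM in siOCLN+LPS, 17.0 CPM in the library labelled wtOCLN+LPS, 11.4 CPM in LPS and 15.1 CPM in control. For PMVK control lay nearer to the transfected libraries than LPS did, whereas for TM7SF2 LPS and control were alike. TM7SF2 shares exon sequence on its own strand with VPS51, which was at 77.5, 73.4, 83.3 and 83.7 CPM in siOCLN+LPS, the library labelled wtOCLN+LPS, LPS and control. LSS was 1.18-fold (1.13 to 1.23) and 1.23-fold (1.18 to 1.29) above LPS, and IDI1, isopentenyl diphosphate isomerase, 1.22-fold and 1.26-fold. On the lower side SC5D, a late desaturase of the sterol ring, had ratios of 0.813 (0.758 to 0.871) and 0.817 (0.762 to 0.875). DHCR7, the last reductase of one branch, had 0.844 and 0.890.

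The SREBP genes differed from each other. SREBF1 was at 106 CPM in siOCLN+LPS, 109 CPM in the library labelled wtOCLN+LPS, 69.2 CPM in LPS and 81.1 CPM in control. The transfected libraries were highest, 1.53-fold (1.41 to 1.65) and 1.58-fold (1.46 to 1.71) above LPS, and 1.31-fold and 1.35-fold above control. SREBF2 was at 543 CPM in siOCLN+LPS, 535 CPM in the library labelled wtOCLN+LPS, 485 CPM in LPS and 482 CPM in control, ratios to LPS of 1.12 and 1.10. INSIG1 was at 339 CPM in siOCLN+LPS, 370 CPM in the library labelled wtOCLN+LPS, 255 CPM in LPS and 267 CPM in control, 1.33-fold (1.28 to 1.39) and 1.45-fold (1.39 to 1.51) above LPS. INSIG2 was at 25.3 CPM in siOCLN+LPS, 31.1 CPM in the library labelled wtOCLN+LPS, 32.5 CPM in LPS and 20.3 CPM in control. INSIG1 was thus higher in both transfected libraries than in LPS or control, and INSIG2 was lowest in control; in the library labelled wtOCLN+LPS INSIG2 was slightly below LPS with library totals and above it with the 3 other scalings. SCAP was at 95.7 to 108 CPM in all 4 libraries.

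Sterol transport and LXR-linked genes held the widest differences. STARD4, a cytosolic carrier of cholesterol, was at 316 CPM in siOCLN+LPS, 365 CPM in the library labelled wtOCLN+LPS, 187 CPM in LPS and 196 CPM in control. Both transfected libraries were above the others, 1.69-fold (1.61 to 1.77) and 1.95-fold (1.86 to 2.04) above LPS. In the library labelled wtOCLN+LPS it lay at a log2 ratio of 0.96 and crossed 2-fold under each of the 3 other scalings tried. NPC1, which exports cholesterol from late endosomes, was at 170 CPM in siOCLN+LPS, 180 CPM in the library labelled wtOCLN+LPS, 239 CPM in LPS and 224 CPM in control, lower in both transfected libraries than in the others.

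ABCA1, the exporter that loads cholesterol onto apolipoproteins, was at 3.15 CPM in siOCLN+LPS, 2.17 CPM in the library labelled wtOCLN+LPS, 12.5 CPM in LPS and 7.43 CPM in control. The order was LPS, control, then the transfected libraries. It was 3.99-fold lower (2.93 to 5.50) in siOCLN+LPS than in LPS, on 55 and 174 counts, and 5.78-fold lower (4.05 to 8.44) in the library labelled wtOCLN+LPS, on 38 counts. Against control it was 2.36-fold lower (1.70 to 3.31) in siOCLN+LPS and 3.42-fold lower (2.35 to 5.07) in the library labelled wtOCLN+LPS. Counted from the lowest log2 ratio, ABCA1 ranked 73 of 13505 genes for siOCLN+LPS against LPS and 34 of 13493 for the library labelled wtOCLN+LPS against LPS. In bulk RNA, fewer cells with ABCA1 RNA and less of it per cell cannot be told apart.

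MYLIP was at 8.01 CPM in siOCLN+LPS, 9.49 CPM in the library labelled wtOCLN+LPS, 15.8 CPM in LPS and 18.7 CPM in control. It was 1.97-fold lower (1.59 to 2.45) in siOCLN+LPS than in LPS and 1.66-fold lower (1.35 to 2.05) in the library labelled wtOCLN+LPS. Against control it was past 2-fold lower in siOCLN+LPS, 2.33-fold (1.90 to 2.87), and 1.97-fold lower (1.62 to 2.40) in the library labelled wtOCLN+LPS. ABCG1, on 16 counts in siOCLN+LPS, 15 in the library labelled wtOCLN+LPS, 5 in LPS and 22 in control, was too sparse to set beside ABCA1 and MYLIP. Its intervals against LPS, 0.889 to 8.86 and 0.821 to 8.36, both include 1, so no difference was detectable at this depth. Of the LXR targets here, then, ABCA1 and MYLIP were lower than LPS in both transfected libraries, while SREBF1 was higher.

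**Figure D4:**
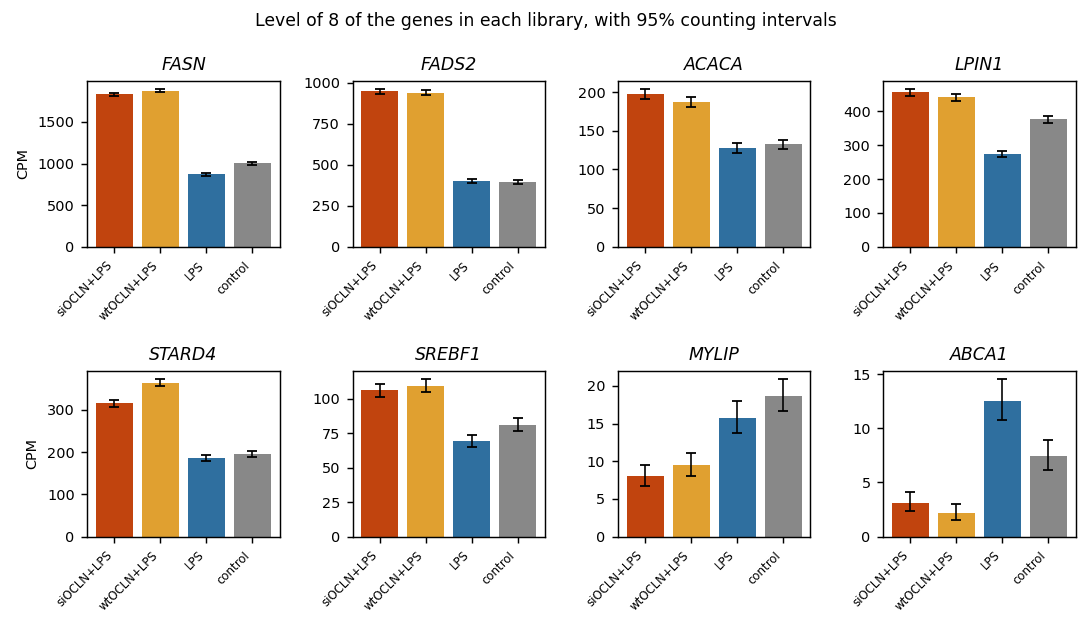
CPM (vertical, each panel on its own axis from 0) of 8 genes in the 4 libraries (bars, with 95% Poisson intervals). FASN, FADS2, ACACA, LPIN1, STARD4 and SREBF1 are highest in the transfected libraries, and MYLIP and ABCA1 are lowest there, with ABCA1 at 3.15 and 2.17 CPM in the transfected libraries, against 12.5 CPM in LPS and 7.43 CPM in control.

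Against control, FADS2 was again past 2-fold higher and ABCA1 past 2-fold lower in both transfected libraries, and FASN was not past 2-fold. Of 35 genes tested in siOCLN+LPS against control, 1 (FADS2) was at least 2-fold higher, where 3.94% of all genes tested were, and 2 (ABCA1 and MYLIP) were at least 2-fold lower, where 5.44% were. In the library labelled wtOCLN+LPS against control, 1 (FADS2) was higher, where 3.91% were, and 1 (ABCA1) lower, where 4.91% were. At 1.5-fold, TM7SF2, STARD4, FASN and FADS2 were higher in siOCLN+LPS than in control, where 8.91% of all genes were, and ABCA1 and MYLIP lower, where 21.6% were. For the library labelled wtOCLN+LPS the higher genes were these 4 and INSIG2, where 8.48% of all genes were, and the lower ones again ABCA1 and MYLIP, where 21.6% were. The comparisons against LPS and against control share the transfected libraries.

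Set directly against each other, siOCLN+LPS and the library labelled wtOCLN+LPS, both transfected and both given LPS, had none of the 34 genes tested past 2-fold or 1.5-fold in either direction. Over all 13109 genes tested 0.0763% were at least 2-fold higher and 0.29% at least 2-fold lower, and 0.755% and 1.19% were past 1.5-fold. The median log2 ratio was -0.02, beside 0.02 over all genes tested. FADS2 had a ratio of 1.01 (0.987 to 1.03), SCD 0.991 (0.971 to 1.01) and FASN 0.977 (0.962 to 0.992). The largest difference was ABCA1 at a log2 ratio of 0.39, a CPM ratio of 1.45 whose interval of 0.941 to 2.25 includes 1. Next in size among those beyond counting error were INSIG2, 0.814 times as high in siOCLN+LPS (0.716 to 0.924), PMVK, 1.196 times as high (1.023 to 1.40), and STARD4, 0.866 times as high (0.835 to 0.898). MSMO1, the sterol C4 methyl oxidase, had 0.897 (0.864 to 0.932), and HMGCS1 and CYP51A1 had 0.925 and 0.928. The counted OCLN transcript was itself lower than LPS in both of these libraries, and whether occludin was raised in the library labelled wtOCLN+LPS was not measured.

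Promoter sequence is shown for 4 genes: FADS2 and STARD4, which were higher in the transfected libraries, ABCA1, which was lower, and SREBF2, the one gene whose promoter held the sterol response element core searched for. RefSeq promoters on GRCh38.p14, each from 250 bases before to 50 bases after the gene start, were matched for 30 of the 35 genes, leaving ABCG1, ACAT2, FASN, FDFT1 and SQLE without one. Only the first promoter listed for a gene was searched, so any other start site of these genes was not. The windows are chr11:61815953-61816252 on the plus strand for FADS2, chr5:111512486-111512785 on the minus strand for STARD4, chr9:104928106-104928405 on the minus strand for ABCA1 and chr22:41832855-41833154 on the plus strand for SREBF2. Sequences read 5′ to 3′ along the gene, and capitals mark matches on either strand to TCACNCCAC, the sterol response element core, CCAAT, the NF-Y box, or CACGTG, an E-box, none of which overlapped each other in these windows.
FADS2: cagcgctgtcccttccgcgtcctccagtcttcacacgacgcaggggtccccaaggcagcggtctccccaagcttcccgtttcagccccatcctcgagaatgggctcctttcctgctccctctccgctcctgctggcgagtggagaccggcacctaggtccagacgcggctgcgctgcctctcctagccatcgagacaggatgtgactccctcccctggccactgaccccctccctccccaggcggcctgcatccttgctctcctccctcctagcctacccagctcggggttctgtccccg
STARD4: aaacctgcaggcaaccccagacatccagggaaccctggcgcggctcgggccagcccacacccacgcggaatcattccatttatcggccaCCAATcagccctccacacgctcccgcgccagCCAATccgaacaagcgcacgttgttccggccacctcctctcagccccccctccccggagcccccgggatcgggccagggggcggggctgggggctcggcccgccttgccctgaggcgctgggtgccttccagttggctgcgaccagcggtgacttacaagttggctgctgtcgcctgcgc
ABCA1: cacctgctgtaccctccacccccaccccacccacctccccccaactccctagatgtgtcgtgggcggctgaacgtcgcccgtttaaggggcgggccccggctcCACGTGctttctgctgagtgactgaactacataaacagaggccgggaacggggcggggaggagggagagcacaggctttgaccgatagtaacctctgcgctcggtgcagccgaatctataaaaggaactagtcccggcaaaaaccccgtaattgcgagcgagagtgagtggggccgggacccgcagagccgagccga
SREBF2: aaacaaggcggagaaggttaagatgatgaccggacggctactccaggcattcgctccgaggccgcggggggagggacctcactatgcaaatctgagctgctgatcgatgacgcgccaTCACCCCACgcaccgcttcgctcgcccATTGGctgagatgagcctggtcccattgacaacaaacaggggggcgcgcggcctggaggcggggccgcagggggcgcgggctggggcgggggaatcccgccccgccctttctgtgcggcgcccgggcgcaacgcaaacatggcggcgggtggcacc

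FADS2 held none of the 3 motifs in this window, STARD4 held 2 CCAAT boxes, ABCA1 held 1 CACGTG, and SREBF2 held a sterol response element core starting 133 bases before the gene start and a CCAAT box on the reverse strand. Over the matched genes, 1 of 30 promoters held TCACNCCAC, beside 1.15% of all 27305 RefSeq promoters of this length. CCAAT was in 17 of 30, or 56.7%, beside 35.7% of all promoters, and CACGTG in 5 of 30, or 16.7%, beside 7.43%. By role, CCAAT was in 4 of 6 promoters of the mevalonate arm, 8 of 9 of the squalene to cholesterol arm, and 1 of 6 of the fatty acid and glycerolipid genes. These are matches of letters in short windows at a single listed start of each gene. They say nothing of other start sites, for FADS2 or any other gene, or of whether a factor binds there.

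Other genes of the same pathways, 20 of sterol metabolism and 22 of fatty acid metabolism, were counted beside the 35. Of the 20 other sterol genes, none was past 2-fold in LPS against control or in siOCLN+LPS against LPS, and 1, NR1H3, was lower in the library labelled wtOCLN+LPS. Of all genes tested, 1.6% were at least 2-fold higher and 0.207% lower in LPS against control. Against LPS, these shares were 3.32% and 3.92% in siOCLN+LPS, and 3.32% and 3.69% in the library labelled wtOCLN+LPS. NR1H3, which encodes the receptor LXR alpha, was at 5.66 CPM in siOCLN+LPS, 4.34 CPM in the library labelled wtOCLN+LPS, 10.3 CPM in LPS and 9.19 CPM in control. It was 1.82-fold lower (1.40 to 2.38) in siOCLN+LPS than in LPS and 2.37-fold lower (1.79 to 3.18) in the library labelled wtOCLN+LPS. The medians of the 20 genes were log2 ratios of -0.21 for siOCLN+LPS against LPS and -0.20 for the library labelled wtOCLN+LPS against LPS, beside -0.13 and -0.15 over all genes.

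Of the other fatty acid genes 21 were tested in each comparison, beside the all-gene shares given above. ELOVL7, a fatty acid elongase, was the only one past 2-fold in any. It was at 14.1 CPM in siOCLN+LPS, 12.6 CPM in the library labelled wtOCLN+LPS, 38.9 CPM in LPS and 17.3 CPM in control. ELOVL7 was 2.25-fold higher (1.94 to 2.61) in LPS than in control, 2.75-fold lower (2.36 to 3.21) in siOCLN+LPS than in LPS and 3.09-fold lower (2.64 to 3.63) in the library labelled wtOCLN+LPS. LPS was thus the high library for ELOVL7, with control much nearer to the transfected libraries. PLIN2, the lipid droplet coat protein perilipin 2, was named after its values were seen: it was at 43.7 CPM in siOCLN+LPS, 46.1 CPM in the library labelled wtOCLN+LPS, 87.6 CPM in LPS and 66.9 CPM in control. ACACB went the other way, at 29.4, 30.7, 16.6 and 23.2 CPM in the same order. At 1.5-fold against LPS, 1 gene (ACACB) was higher and 4 lower for either transfected library. Of all genes tested, 9.09% were higher and 15.3% lower in siOCLN+LPS, and 8.59% and 15.1% in the library labelled wtOCLN+LPS. For siOCLN+LPS 10 of the 21 were above LPS and 11 below, with a median log2 ratio of -0.006. With the wtOCLN+LPS label 12 were above and 9 below, with a median of 0.04. Among those above LPS in both, ACLY was at 387, 416, 312 and 352 CPM in siOCLN+LPS, the library labelled wtOCLN+LPS, LPS and control. ACSL3 was at 544, 579, 397 and 361 CPM in the same order. All 22 summed to 1.04 and 1.07 times LPS, beside 1.60 and 1.62 for the 7 genes of fatty acid and glycerolipid synthesis. Within those 7, FASN and FADS2 alone summed to 2.19 and 2.22 times LPS. The sum of the 22 thus covers genes on both sides of LPS.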

How the data were processed

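The deposited values are whole-number counts of reads per gene symbol, 1 library per group, made by the authors from directional libraries of 1.3 µg total RNA, per the labels' protocols. The submitters' processing notes name TopHat, Cufflinks and hg19 with no role for each. How reads were counted, on which strand setting and against which annotation is not given in the sources used here, so genes that share reads with copies (FDPS, CYP51A1, HSD17B7, FADS2 and SCD have named pseudogenes in GENCODE 29) or with overlapping genes (TM7SF2 with VPS51, ACAT2 with TCP1 and SOD2) are uncertain. Groups came from the treatment in the labels.

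Counts were scaled to CPM by library total. A gene entered a comparison if one of its libraries had at least 1 CPM, and it counted as higher or lower at 2-fold on the log2(CPM + 1) scale, over all 24424 symbols, and this scale understates the change of low genes. Folds named in the text are CPM ratios without a pseudocount, with Clopper-Pearson intervals, and levels have Poisson intervals, both at 95%. With 1 library a group no p-value could be had, and edgeR served only for TMM factors. The depth of each library sets the width of these intervals. The rule for named genes took those of the 35 past 2-fold in any of the 4 comparisons, the one with the highest mean CPM in each role group (HMGCS1, CYP51A1, SREBF2, STARD4 and FASN), the other pathway genes past 2-fold at CPM 5 or more in either library, and OCLN; the rest of the genes named were chosen after their values were seen. The genes, role groups and lists were chosen with earlier results of these data known. Transcript length and GC content came from GENCODE 29, on another build than hg19, with values for all 35 genes. The counting steps were tested on simulated counts. Python 3.11.15 with NumPy 2.4.6, SciPy 1.17.1 and pandas 2.3.3, and R 4.3.3 with edgeR 4.0.16, were used.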

Additional observations from a re-analysis of the deposited data

How the results depend on the processing

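The other settings were pseudocounts of 0.1 and 5, no filter or one at CPM 5, 1.5-fold and 3-fold in place of 2-fold, scaling by median ratio, by upper quartile or by TMM, control in place of LPS as the comparison library, and, chosen after seeing the data, removal of the trend with transcript length and GC content. ABCA1 was at least 2-fold lower and FASN and FADS2 at least 2-fold higher than LPS in both transfected libraries under each of these pseudocounts, filters and scalings and with that trend removed. STARD4 passed 2-fold in the library labelled wtOCLN+LPS with each scaling and with that trend removed. At 3-fold, for which no share of all genes is given here, 0 genes were higher in either transfected library and ABCA1 alone was lower. At 1.5-fold, 8 genes were higher and 2 lower in siOCLN+LPS, 6 higher and 2 lower with the wtOCLN+LPS label, and 2 higher and 1 lower in LPS against control. The shares of all genes tested were 9.09% and 15.3%, 8.59% and 15.1%, and 3.45% and 2.8% in the same order. Against control in place of LPS, 1 gene (FADS2) was at least 2-fold higher in each transfected library, and 2 (ABCA1 and MYLIP) were lower in siOCLN+LPS. With a pseudocount of 0.1, 1 gene (ABCG1) was at least 2-fold lower in LPS than in control. Scaling moved the medians with that of all genes. In the order median ratio, upper quartile, TMM the genes' median log2 ratio was 0.27, 0.24 and 0.28 for siOCLN+LPS against LPS, 0.27, 0.22 and 0.27 for the library labelled wtOCLN+LPS against LPS, and 0.083, 0.075 and 0.080 in LPS against control. Over all genes these medians moved from -0.13 and -0.15 in the transfected libraries against LPS to between -0.04 and 0.01, a shift that takes in the 35 genes too. In LPS against control 10 of 35 genes, none of them past 1.5-fold, changed side of 1 under each scaling. Of all genes past 2-fold, 45.9% were higher in siOCLN+LPS with library totals, against 60.8%, 57.9% and 61.5% with these scalings, and 47.4% in the library labelled wtOCLN+LPS, against 64.7%, 58.5% and 64.9%. No paired analysis was possible because each group has 1 library. ABCG1, on 5 to 22 counts, is the gene that depth limits most.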
